A study of Mus musculus with 72 samples.

Results

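The comparison described here set the livers of germ-free (GF) mice without a hepatocyte clock against those of GF mice with one, at ZT18, the middle of the dark phase, when mice are active and feeding. It used 6 of the 72 RNA-seq libraries of the study, chosen by their labels alone: 3 from GF LKO mice and 3 from GF WT mice. LKO mice carry Bmal1 fl/fl together with Albumin-cre, in which Cre recombinase is made under the albumin promoter and so in hepatocytes, and WT mice are Bmal1 fl/fl controls that carry the floxed allele without Cre. Deletion is therefore limited to cells in which the albumin promoter has been active, and deletion in single cell types was not measured here. The genotypes differ in Cre as well as in Bmal1, and the parts of each in a difference cannot be told apart here. Each library came from another mouse. All 6 mice were male, on a background labelled C57BL/6 (C57BL/6J in the study's methods), kept under a light and dark cycle with lights on at ZT0, fed autoclaved chow freely and free of microbes; their ages are not given in the labels. The other 66 libraries are GF livers of 5 further times and livers of specific-pathogen-free (SPF) mice of both genotypes at all 6 times, again with 3 libraries in each group.

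Bmal1, listed as Arntl, pairs with Clock or its relative Npas2 to bind the E-box CACGTG and switch on target genes. Among these targets are the Per and Cry repressors, which close the loop by blocking the pair, the receptors Nr1d1 and Nr1d2 (Rev-erb α and β), which repress Arntl and Npas2, and the factors Dbp, Tef and Hlf, which bind the D-box and are opposed there by Nfil3. In the liver this loop gives a daily rhythm to glycogen, lipid, bile acid and drug metabolism. At ZT18 of a normal mouse, Arntl is near the upper part of its cycle while Nr1d1 and Dbp are near their trough, so the time of sampling bears on which clock genes can differ.

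Libraries held from 17623284 to 18800162 counts assigned to genes, and 12660 of the 55573 genes in the table passed the filter on low counts. Levels are given as CPM, a count relative to the total of its library after TMM scaling (the trimmed mean method of edgeR), and are compared within a gene, never between genes. Correlations of log2 CPM between libraries were 0.9838 to 0.9898 within a genotype and 0.9642 to 0.9711 between genotypes. None of the 6 libraries went against its label, although the third GF WT library stood apart in a few genes named below. Of libraries used further on, SPF LKO ZT18 replicate 1 goes against its label, since its albumin share of 10.0% of counts and its Arntl level are those of WT livers, and GF WT ZT6 replicate 3 stands apart from its group.

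The targeted gene was lower in every LKO library. Arntl (ENSMUSG00000055116, chromosome 7, 113207465 to 113314126 in GRCm38) was at 32, 29.3 and 25.2 CPM in GF WT and at 9.72, 9.93 and 11.7 CPM in GF LKO livers. The groups were far apart, with a log2 fold change of -1.46 ± 0.13 (SE, n = 3 per group), or 2.75-fold lower, at an adjusted p of 0.00012 in edgeR's quasi-likelihood test. Counts cover the whole gene, so reads from exons outside the deleted stretch and from cells without Cre remain in the LKO value.

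Loss of the hepatocyte clock was accompanied by changes in 1707 genes at an adjusted p under 0.05, which is 13.5% of those tested. Of these, 808 were higher (6.38%) and 899 lower (7.1%) in LKO livers. At a change of at least 2-fold, 284 were higher and 269 lower. The median log2 fold change of all tested genes was 0.005. All but 3 of the 1707 called genes had groups that did not overlap, against 4281 of all 12660 tested.

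**Figure D1:**
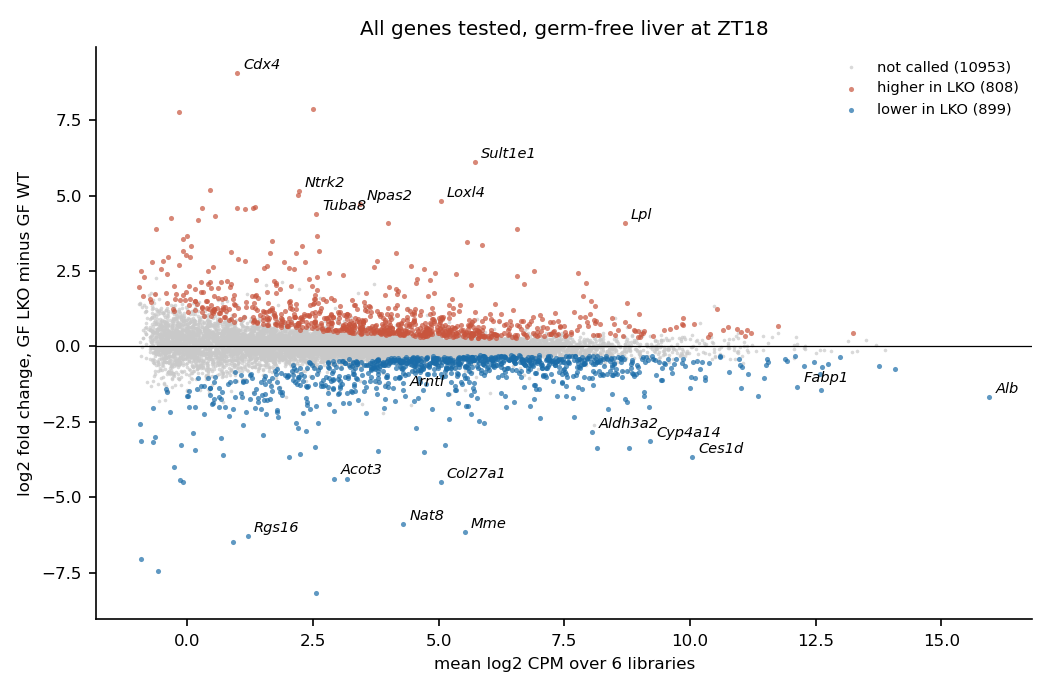
Each point is 1 of the 12660 tested genes, with its mean level (log2 CPM over the 6 libraries) on the x axis and its log2 fold change, GF LKO over GF WT at ZT18, on the y axis. Genes called higher (808) and lower (899) are coloured, and the labelled genes are a selection of called genes described in the text. Lpl at 4.08 and Ces1d at -3.67 lie far from 0 on the right side of the plot.

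Of the activators of the loop, Arntl fell and Npas2 rose while Clock and Rora gave no call. Npas2 (chromosome 1, 39193731 to 39363236) was at 1.01, 1.02 and 0.284 CPM in WT and at 23.4, 15.9 and 21.7 CPM in LKO livers. It was thus nearly absent from WT livers and present in every LKO liver, 26.4-fold higher (log2 fold change 4.72 ± 0.32 SE, adjusted p = 2.01e-05). Clock was at 93.2, 97.3 and 78 CPM against 97.4, 113 and 93.4 CPM, with overlapping groups and an adjusted p of 0.337. Rora, which activates Arntl through the sites that Rev-erbs occupy, had a log2 fold change of -0.06 (adjusted p = 0.811), and Rorb had no count in any of the 6 libraries.

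On the repressing side, 3 of 9 tested genes fell and none rose, with a median log2 fold change of -0.06. Nr1d2, which encodes Rev-erb β, was at 23.6, 25.6 and 19.1 CPM in WT and at 7.32, 10.3 and 9.25 CPM in LKO livers, 2.55-fold lower (-1.35 ± 0.16 SE on the log2 scale, adjusted p = 0.000628). Its relative Nr1d1 was low in both genotypes, at 0.95, 1.26 and 0.625 CPM in WT and 0.852, 0.982 and 1.60 CPM in LKO livers, and at this level no difference was detectable (adjusted p = 0.666). The Per genes did not behave alike. Per3 was at 10.2, 11.9 and 9.65 CPM against 5.61, 3.66 and 6.87 CPM, 1.96-fold lower in LKO (adjusted p = 0.0162), and without WT replicate 2 its adjusted p was 0.0613. Per2 was at 34.9, 33.7 and 44.5 CPM against 27.7, 22.6 and 27.8 CPM, 1.45-fold lower (adjusted p = 0.0298), a call that ended without WT replicate 1 or 3 or LKO replicate 1 or 2, with adjusted p up to 0.0698. In both genes every LKO library lay under every WT library. Per1 spread more within WT than between genotypes, at 32.7, 31.4 and 6.19 CPM in WT and 12, 20.4 and 34.6 CPM in LKO livers, the low value being that of the third WT library. Cry1 and Cry2 both had log2 fold changes of 0.15 (adjusted p = 0.411 and 0.519), and Bhlhe40, which competes for E-boxes, one of -0.05 (adjusted p = 0.885). Ciart, a clock repressor of low level here, was at 1.37, 0.662 and 0.738 CPM against 0.150, 0.546 and 0.0968 CPM, and did not pass although the groups were apart (adjusted p = 0.0718). Bhlhe41 did not reach the level needed for a test, at 0.475, 1.08 and 1.02 CPM against 0.150, 0.164 and 0 CPM.

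**Figure D2:**
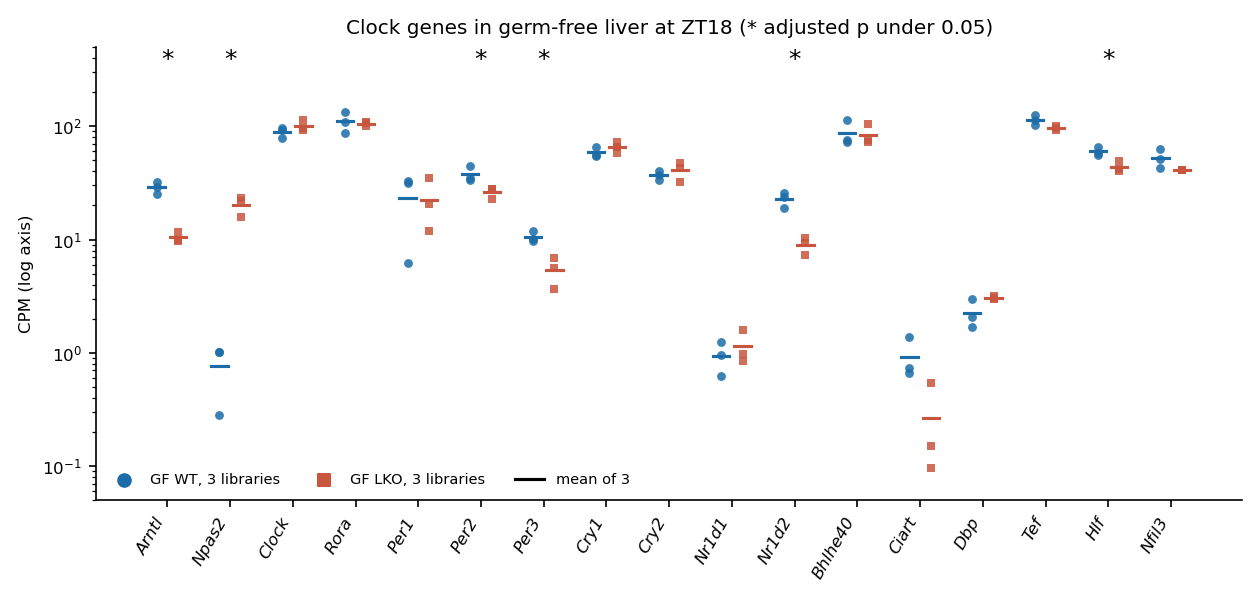
Points are the level of each clock gene in single libraries (CPM, log axis), with 3 GF WT and 3 GF LKO livers of ZT18 side by side, bars for the mean of 3 and a star over genes with an adjusted p under 0.05. Arntl, Nr1d2 and Per3 sit lower in all 3 LKO livers and Npas2 higher in all 3, whereas Per1 runs from 6.19 to 34.6 CPM with the genotypes mixed.

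The D-box factors showed small differences at this hour. Hlf was at 57.9, 55.8 and 65.8 CPM in WT and 49.3, 40.3 and 41.9 CPM in LKO livers, 1.37-fold lower (adjusted p = 0.0247), and leaving out WT replicate 1 or 3 or LKO replicate 2 or 3 ended the call, with adjusted p up to 0.0736. Dbp was near its trough in WT livers, at 2.08, 1.69 and 3.01 CPM against 3.01, 3.05 and 3.15 CPM in LKO livers, and gave no call (log2 fold change 0.44 ± 0.24 SE, adjusted p = 0.266). Tef and the D-box repressor Nfil3 had log2 fold changes of -0.22 and -0.35 (adjusted p = 0.151 and 0.126). Of 16 genes known as direct clock outputs, 4 fell (Hlf, Nampt, Rgs16 and Wee1) and none rose, with a median of -0.29. These calls are 25% of the list, beside 13.5% over all tested genes. The falls were 2 without WT replicate 1 or LKO replicate 2 or 3. Nampt, the rate-limiting enzyme of NAD salvage, was at 119, 136 and 124 CPM against 72.7, 71 and 73.7 CPM, 1.75-fold lower (adjusted p = 0.000301). Rgs16, a regulator of G protein signalling, was at 8.08, 1.99 and 3.46 CPM in WT and nearly gone in LKO livers, with 230 counts against 3 over the groups, a ratio of 88.5 (29.9 to 433, exact 95% counting interval). Wee1, a kinase that holds back mitosis, fell by 0.67 (adjusted p = 0.0449), a call lost without any of 4 of the 6 libraries (WT replicates 1 and 3, LKO replicates 2 and 3) and ranging up to an adjusted p of 0.121.

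Promoter sequence was set beside these calls. Within the 250 bases before the start of 9709 tested genes with a RefSeq promoter (GRCm38.p6), the E-box CACGTG stood in 8.51% of all tested genes, in 8.49% of those called higher (50 of 589) and in 9.62% of those called lower (66 of 686). The D-box TTATGTAA, searched on both strands, was rarer, in 0.515% of all tested genes, 0.34% of those higher (2 of 589) and 1.75% of those lower (12 of 686); over all 32851 RefSeq windows the E-box share was 6.02% and the D-box share 0.819%. The nuclear receptor motif AGGTCA, which Rora and Rev-erb proteins bind with flanking bases and which as a direct repeat makes up the sites of PPARα and its partner RXR, was in 10.8% of all tested genes, 9.34% of those higher, 14.3% of those lower and 14% of all windows. Its direct repeat with 1 base between, AGGTCANAGGTCA, was in 0.0618% of tested genes and in none of those called. No test was made of these shares, and a match is a description of the letters only. Of 16 clock genes with a window, 4 held CACGTG and none of these was called, so the windows printed here were chosen after their values were seen.

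The D-box windows of 4 genes that fell show the letters in capitals; the sequences are RefSeq GRCm38.p6, 5′ to 3′ on the strand of the gene. Alb (chr5:90460620-90460733, plus strand) holds a match on each strand, Per3 (chr4:151044756-151044915, minus strand) holds 2 matches, and the carboxylesterase genes Ces1e (chr8:93229633-93229760, minus strand) and Ces1g (chr8:93337374-93337459, minus strand) hold 1 each.
Alb: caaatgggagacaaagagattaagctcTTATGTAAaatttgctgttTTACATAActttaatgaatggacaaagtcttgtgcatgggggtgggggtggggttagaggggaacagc
Per3: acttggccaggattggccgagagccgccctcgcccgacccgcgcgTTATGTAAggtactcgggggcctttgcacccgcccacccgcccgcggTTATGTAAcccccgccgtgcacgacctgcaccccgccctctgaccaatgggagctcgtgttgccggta
Ces1e: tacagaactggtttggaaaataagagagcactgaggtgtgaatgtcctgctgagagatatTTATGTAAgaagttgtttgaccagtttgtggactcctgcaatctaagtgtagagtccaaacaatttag
Ces1g: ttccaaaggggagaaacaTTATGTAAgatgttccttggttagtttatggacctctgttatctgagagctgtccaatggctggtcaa

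The E-box windows, with CACGTG in capitals, are given for 1 clock gene and 2 genes at opposite ends of the changes. Ciart (chr3:95882252-95882404, minus strand) holds 3 boxes and did not pass the test, Tuba8 (chr6:121210484-121210592, plus strand) rose and Gpx6 (chr13:21312022-21312124, plus strand) fell, so that the box stood before genes of either direction.
Ciart: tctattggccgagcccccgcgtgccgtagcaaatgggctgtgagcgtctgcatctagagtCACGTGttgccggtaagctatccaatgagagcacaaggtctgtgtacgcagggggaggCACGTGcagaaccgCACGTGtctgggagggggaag
Tuba8: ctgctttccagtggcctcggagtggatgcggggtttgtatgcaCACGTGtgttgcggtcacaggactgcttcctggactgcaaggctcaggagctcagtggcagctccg
Gpx6: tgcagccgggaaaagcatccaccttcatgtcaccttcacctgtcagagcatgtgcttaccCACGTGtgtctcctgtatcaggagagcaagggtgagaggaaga

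The largest increases took in genes with few counts in WT livers. Cdx4, a homeobox gene of the embryonic gut, had no count in any WT library and was at 4.61, 4.53 and 1.84 CPM in LKO livers, at least 61.5-fold higher when the WT group is set to a floor of 3 counts. Sult1e1 (chromosome 5, 87575969 to 87591594), which sulfates and so inactivates estrogens, was at 1.66, 1.51 and 1.31 CPM against 105, 145 and 59.7 CPM, 69-fold higher (6.11 ± 0.36 SE on the log2 scale, adjusted p = 8.21e-06). Lpl (chromosome 8, 68880491 to 68907448), the lipase that frees fatty acids from circulating triglyceride and is little expressed by adult hepatocytes, was at 42.1, 54.4 and 42.6 CPM against 685, 920.1 and 754 CPM. It was 17-fold higher, with an adjusted p of 9.19e-07. Loxl4, a lysyl oxidase of the extracellular matrix, rose from 2.20, 1.99 and 2.44 CPM to 82.3, 46.9 and 59.3 CPM, and Tuba8, an α-tubulin, from 0.356, 0.542 and 0.625 CPM to 10.6, 12.8 and 9.39 CPM. Ntrk2, the BDNF receptor, was more uneven, at 4.96, 4.04 and 16.7 CPM in LKO livers against 0.297, 0.241 and 0.17 CPM in WT. The other members of this group had log2 fold changes of 5.04 (Tox2), 4.63 (Nckap5), 4.59 (Hebp2) and 4.57 (1700010I14Rik), and 4930459C07Rik had 639 counts against 2. All 3 LKO libraries lay above all 3 WT libraries in each of these genes, but the rule that picked them required this.

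The largest decreases were seen in genes of varied function. Mme (chromosome 3, 63241537 to 63386030), the membrane endopeptidase neprilysin, was at 90.1, 104 and 78.1 CPM in WT and 1.75, 1.25 and 0.774 CPM in LKO livers, 71.9-fold lower (-6.17 ± 0.23 SE on the log2 scale, adjusted p = 7.95e-07). Ces1d (chromosome 8, 93166068 to 93197838), a carboxylesterase that hydrolyses triglyceride, was at 2063, 1917 and 1909 CPM against 172, 156 and 135 CPM, 12.7-fold lower (adjusted p = 6.22e-07). It had the smallest adjusted p of the named genes, with a spread within each group far under the gap between them. Col27a1, a fibrillar collagen, was at 75.7, 56.6 and 56.9 CPM against 4.11, 1.91 and 2.32 CPM, and Acot3, a peroxisomal acyl-CoA thioesterase, at 8.85, 13 and 21.9 CPM against 0.902, 0.600 and 0.581 CPM. Nat8 and Nat8f5, neighbouring and similar acetyltransferase genes, fell by 5.89 and 3.51 on the log2 scale, Gpx6 by 3.66, the calcineurin inhibitor Rcan2 by 3.58 and the glucuronosyltransferase Ugt1a9 by 3.47. Gm32468 had 603 counts against 2, and Gm19522, whose neighbours on the other strand were not separated in the counting, fell by 4.41. Reads that match several places or overlap several genes were not counted, so values of close relatives such as the Nat8, Ces1, Cyp4a, Gst and Mup genes and of Ugt1a genes with shared exons are less certain than those of single genes.

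Calls were frequent in lists of fatty acid metabolism. PPARα, a nuclear receptor that senses fatty acids, switches on genes for their oxidation in mitochondria and peroxisomes, and its gene Ppara fell. Ppara was at 74, 86.6 and 76.5 CPM in WT and 44.2, 37.9 and 40.1 CPM in LKO livers, 1.94-fold lower (adjusted p = 0.000295). In the fatty acid oxidation list 25 of 37 tested genes fell and none rose, with a median log2 fold change of -0.57 beside 0.005 over all tested genes. Leaving out any 1 library gave 19 to 27 falls and still no rise. The summed level of the list ran from 20990.2 to 23493 CPM in WT and from 11030.2 to 12044 CPM in LKO livers, without overlap.

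**Figure D3:**
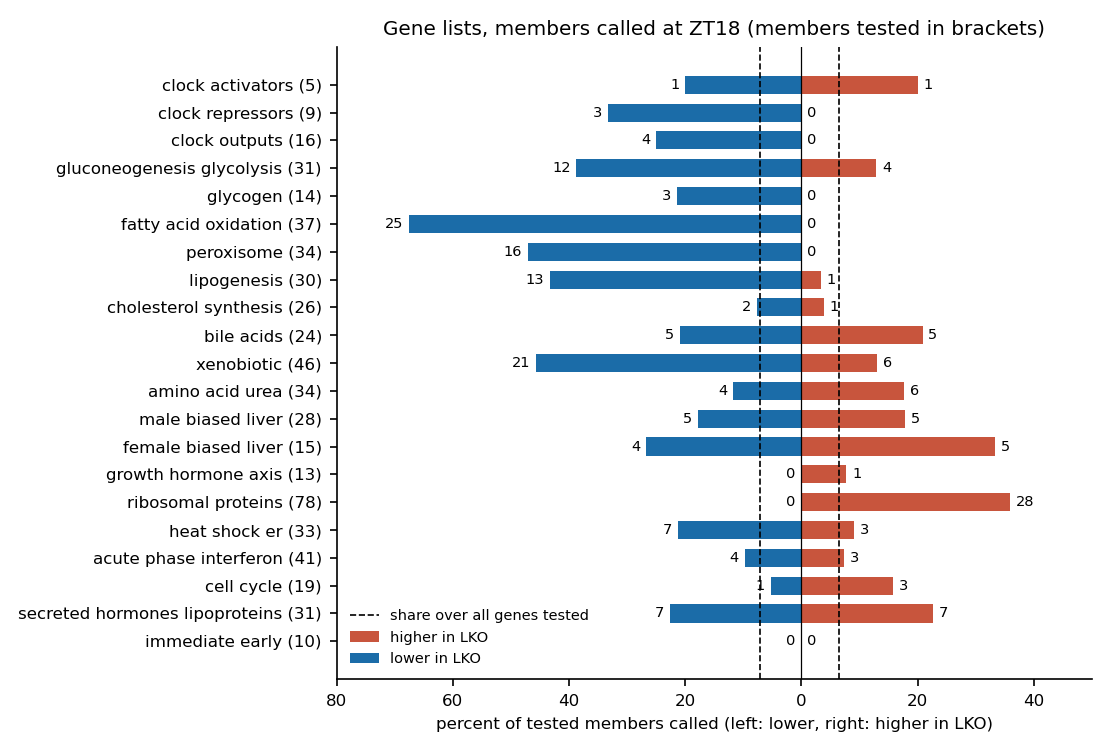
Bars give, for each gene list, the percentage of its tested members called higher (right) and lower (left) in GF LKO livers at ZT18, with the counts beside them and dashed lines at the percentages over all tested genes (6.38% higher, 7.1% lower). Fatty acid oxidation (25 of 37 lower), peroxisome (16 of 34 lower) and ribosomal proteins (28 of 78 higher) are the longer lists with all calls in 1 direction.

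Aldh3a2 (chromosome 11, 61223417 to 61267464), which oxidises long-chain fatty aldehydes, was at 464, 531 and 414 CPM in WT and 53.9, 85.5 and 57.6 CPM in LKO livers. This was 7.16-fold lower (-2.84 ± 0.18 SE on the log2 scale, adjusted p = 1.6e-05). Cyp4a10, an ω-hydroxylase of fatty acids, was at 799, 907 and 722 CPM against 49.6, 90.8 and 92.5 CPM, and its relative Cyp4a14 at 1051, 970.3 and 1151 CPM against 45.5, 53.8 and 260.3 CPM. They were 10.4-fold and 8.81-fold lower, and the third LKO library was the highest of its group in both. The mitochondrial steps moved less: Cpt1a, the gate of entry for long-chain fatty acids, was at 299, 284 and 275 CPM against 186, 179.8 and 212 CPM, 1.49-fold lower (adjusted p = 0.00377). Slc25a20, the carnitine carrier of the inner membrane, fell by 1.02 on the log2 scale (adjusted p = 0.00012), Cpt2 by 0.63 and Acadl by 0.68. Fabp1, the fatty acid carrier of the hepatocyte cytosol, was at 5508, 7065 and 6717 CPM against 2311, 2810.2 and 2547 CPM, 2.52-fold lower (adjusted p = 0.000203). Genes of the list without a call were Fgf21, a fasting hormone near the filter (log2 fold change -1.04, adjusted p = 0.257), the coactivator Ppargc1a (-0.57, adjusted p = 0.275) and the fatty acid transporter Cd36 (-0.34, adjusted p = 0.254).

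Peroxisomes shorten very long chains and pass the products on. In that list 16 of 34 genes fell and none rose, with a median of -0.41 and with 12 to 16 falls when 1 library was left out. The thiolase Acaa1b was at 947, 960.2 and 891 CPM in WT and 233, 245 and 213 CPM in LKO livers, 4.05-fold lower, and the bifunctional enzyme Ehhadh at 703, 963 and 759 CPM against 282, 296 and 267 CPM. Pex11a, which divides peroxisomes, fell by 1.65 on the log2 scale (adjusted p = 2.69e-05). In each of these 3 genes the LKO libraries lay closer to each other than to any WT library.

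The opposite pathway, fatty acid synthesis, also fell in part. Of 33 genes listed 30 were tested, of which 13 fell and 1 rose, with a median of -0.69, and the summed level went from between 19554 and 20601 CPM to between 8817 and 12913 CPM. Scd1, the desaturase that makes oleate, was at 9339, 9298 and 8518 CPM in WT and 3585, 1902 and 4486 CPM in LKO livers (adjusted p = 0.00569). Me1, malic enzyme, was at 203, 279 and 173 CPM against 26.9, 32.1 and 67 CPM, 5.19-fold lower, and Acacb, the acetyl-CoA carboxylase of the mitochondrial surface, at 152, 189.8 and 196 CPM against 46.2, 32.6 and 56.9 CPM, 3.96-fold lower. Thrsp and Fads2 fell by 1.37 and 1.12 on the log2 scale. Fasn, fatty acid synthase itself, was at 504, 476 and 708 CPM against 369, 161 and 431 CPM, apart but too uneven to pass (adjusted p = 0.117), and the lipogenic regulator Srebf1 had a log2 fold change of 0.13 (adjusted p = 0.798). Elovl3, an elongase with a strong rhythm, was the member that rose, at 1635, 1237 and 1068 CPM against 2043, 1954 and 1786 CPM (adjusted p = 0.04), and that call ended without any 1 of 5 libraries (all but WT replicate 1), with adjusted p up to 0.131. Angptl4, a secreted inhibitor of lipoprotein lipase and itself a PPARα target, fell from 202, 149 and 74.9 CPM in WT to 29.3, 39.4 and 50.4 CPM in LKO livers (adjusted p = 0.0053), while Lpl was higher.

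**Figure D4:**
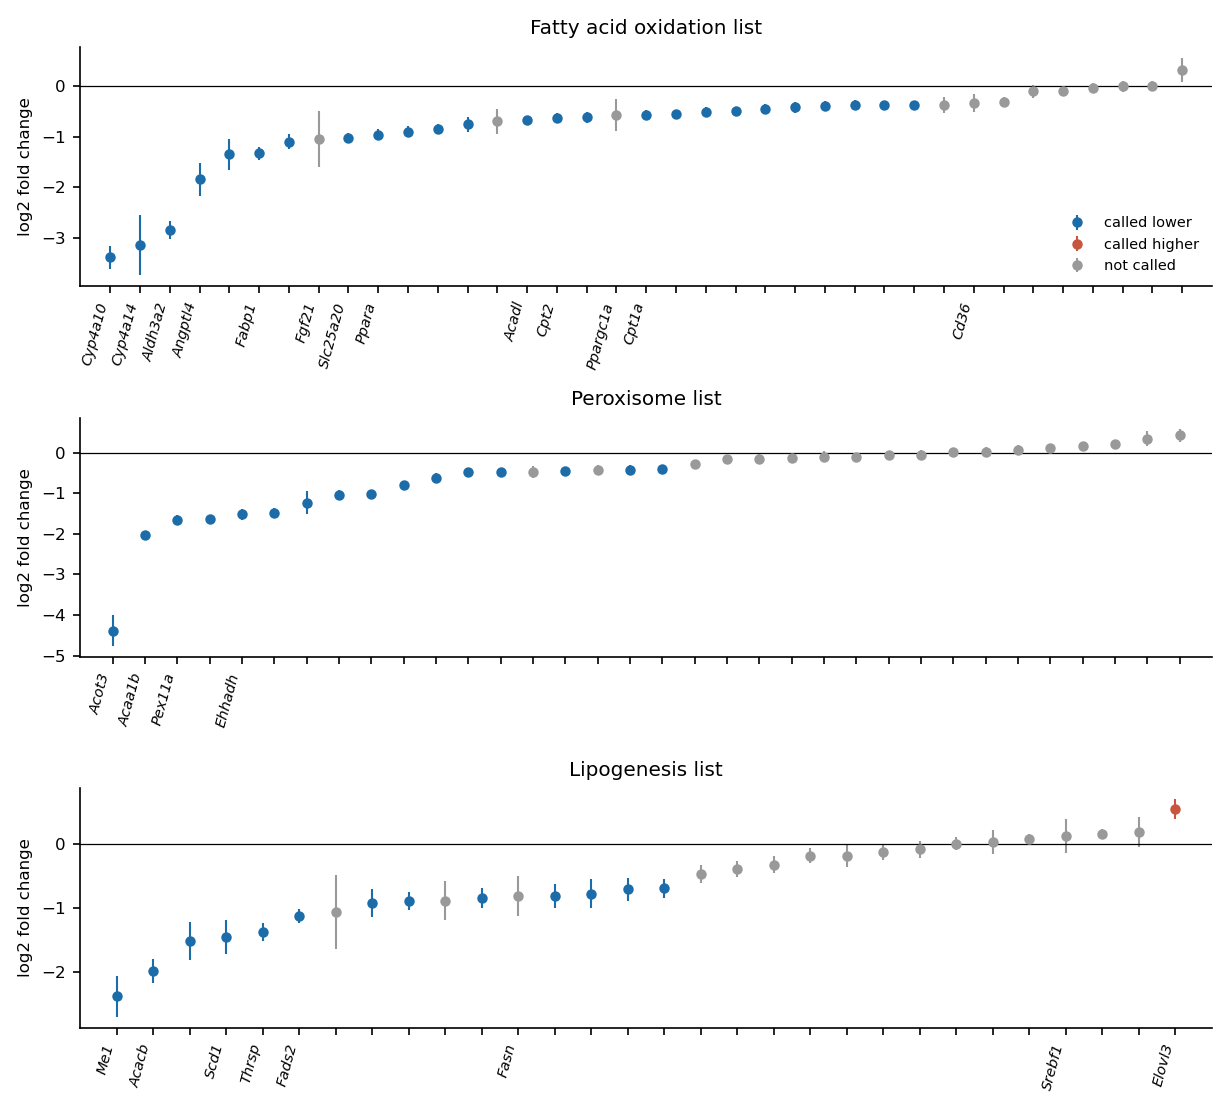
Each dot is 1 tested gene of the fatty acid oxidation (37), peroxisome (34) or lipogenesis (30) list, with its log2 fold change, GF LKO over GF WT at ZT18, on the y axis and a bar for 1 standard error; genes are ordered by that change and those described in the text are named on the x axis. Called genes (blue lower, red higher) lie under 0 from Acot3 at -4.38 and Cyp4a10 at -3.38 upwards, and Elovl3 at 0.55 is the called gene above 0.

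Glucose metabolism changed in some of its steps and not in others. Of 31 genes of glycolysis and gluconeogenesis, 4 rose and 12 fell, with a median of -0.21, and leaving out 1 library gave 1 to 4 rises, the fewest without WT replicate 1 or 2 or LKO replicate 1, and 5 to 11 falls, with 6 without WT replicate 1 and 5 without LKO replicate 1. Slc2a2, the glucose transporter GLUT2, was at 463, 349 and 411 CPM in WT and 251, 175 and 206 CPM in LKO livers, 1.93-fold lower (adjusted p = 0.00282). The glycolytic enzymes Gapdh, Eno1 and Pklr fell by 0.62, 0.78 and 0.88 on the log2 scale (adjusted p = 0.00264, 0.00296 and 0.0238), and the Pklr call ended without any WT library or LKO replicate 1 (up to 0.0615). Gckr, a regulatory protein of hepatocyte glucose use, rose from 125, 112 and 98.6 CPM to 203, 168 and 219.9 CPM (adjusted p = 0.00267), and Ldha by 0.45 on the log2 scale (adjusted p = 0.0148, or 0.0615 without WT replicate 2). Pdk4 and Pgam1 were also called higher, but leaving out WT replicate 1 or 2 or LKO replicate 1 ended both calls, as did WT replicate 3 for Pdk4 and LKO replicate 2 for Pgam1, with adjusted p up to 0.118 and 0.132.

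Pck1, G6pc, Fbp1 and Pck2, enzymes of gluconeogenesis, gave no call at ZT18. Pck1, the entry enzyme of the pathway, was at 3166, 2523 and 595 CPM in WT and 1467, 1598 and 2471 CPM in LKO livers (adjusted p = 0.842). The third WT library was the lowest of all 6 for Pck1, as it was for Per1 and for G6pc, at 448 CPM against 1116 and 1440.4 CPM in the other WT livers and 911, 803 and 809 CPM in LKO livers. Fbp1 was at 914, 892 and 855 CPM against 777, 806 and 848 CPM (adjusted p = 0.379), and Pck2 had a log2 fold change of 0.19 (adjusted p = 0.698). Of the 8 genes that the study itself singled out for glucose and fatty acid handling, Aldh3a2, Cpt1a, Ppara, Fabp1 and Eno1 fell and these 3 did not pass; as they were picked from this series, the count is not independent evidence.

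Glycogen genes gave 3 calls, and those of Gys2 and Gbe1 held whichever library was left out. Gys2 (chromosome 6, 142422613 to 142473109), liver glycogen synthase, was at 219.6, 258 and 267 CPM in WT and 83.4, 72.4 and 80.6 CPM in LKO livers, 3.15-fold lower (-1.65 ± 0.11 SE on the log2 scale, adjusted p = 1.51e-05). Gbe1, the branching enzyme, was at 182, 207 and 158 CPM against 97.8, 93.5 and 92.8 CPM, 1.93-fold lower (adjusted p = 0.000485). Pgm1 fell by 0.36 (adjusted p = 0.0165), a call that ended without WT replicate 1 or LKO replicate 1, with adjusted p up to 0.0717. These were the 3 calls among 14 tested genes, or 21.4% beside 13.5% over all tested genes, and the median of the list was 0.08. Pygl, the phosphorylase that degrades glycogen, was at 563, 549 and 518 CPM against 581, 574 and 559 CPM (adjusted p = 0.628).

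Bile acid genes split by step. Of 27 genes listed 24 were tested, of which 5 rose and 5 fell (3 without WT replicate 1), with a median of -0.16. Cyp7a1, the rate-limiting enzyme of the classical pathway, was at 476, 387 and 360.2 CPM in WT and 607, 613 and 539 CPM in LKO livers (adjusted p = 0.0199, and up to 0.0782 without WT replicate 2 or 3 or LKO replicate 1 or 2), and Cyp7b1 of the alternative pathway at 658, 695 and 548 CPM against 1258, 1474 and 969.8 CPM (adjusted p = 0.00368). Cyp8b1, which sets the share of cholic acid, was lower, at 595, 489 and 393 CPM against 295, 219 and 273 CPM (adjusted p = 0.00576). Akr1d1, the reductase of the shared later steps, fell by 0.95 on the log2 scale, the conjugating enzyme Slc27a5 by 0.47 and the canalicular pump Abcc2 by 0.57 (adjusted p = 0.0124, or 0.0506 without WT replicate 1). Abcg5 and Abcg8, which together export sterols into bile, both rose, from 50.8, 47.1 and 47 CPM to 79.6, 98.4 and 129 CPM for Abcg5 and by 1.07 on the log2 scale for Abcg8. Nr0b2 (SHP), the repressor of Cyp7a1, had a log2 fold change of -1.2 with overlapping groups (adjusted p = 0.0574). Cholesterol synthesis stayed near the background, with 1 of 26 genes higher and 2 lower and a median of -0.08; the gene that rose was Insig2 (0.74, adjusted p = 0.0027), which retains SREBP in the endoplasmic reticulum, and those that fell were Pmvk and Ebp. The Pmvk call ended without any WT library or LKO replicate 1 and the Ebp call without any library but LKO replicate 3, with adjusted p up to 0.104 and 0.136.

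Genes for drug and xenobiotic handling changed in both directions, with more falls than rises. Of 53 genes listed 46 were tested, of which 21 fell and 6 rose, with a median of -0.32. Por, the electron donor of microsomal cytochromes P450, fell by 1.18 on the log2 scale (adjusted p = 0.00158). Cyp2a5, a coumarin hydroxylase, was at 462, 567 and 522 CPM in WT and 46, 68.7 and 34 CPM in LKO livers (-3.38 ± 0.23 SE on the log2 scale, adjusted p = 2.32e-05). Ces1e, whose promoter window is shown above, was at 336, 375 and 324 CPM against 62, 78 and 65.3 CPM, 5.04-fold lower, and Ces1g at 552, 509 and 513 CPM against 176, 179 and 166 CPM, 3.02-fold lower. Cyp3a11 was at 886, 556 and 568 CPM against 153, 247 and 159.7 CPM, and its regulators, the xenobiotic receptors Nr1i3 (CAR) and Nr1i2 (PXR), fell by 0.96 and 0.53 (adjusted p = 0.00384 and 0.00868). Cyp2b10, also a CAR target, went the other way, from 31.3, 16.4 and 24.6 CPM to 40.4, 71.4 and 73.8 CPM (adjusted p = 0.00882). Glutathione transferases split by class: Gsta3 fell from 3288, 2845 and 2838 CPM to 1135, 1137 and 1164 CPM, whereas Gstm3 rose from 22.2, 39.2 and 31.7 CPM to 204, 152 and 118 CPM and Gstm1 from 618, 817 and 622 CPM to 1331, 1037 and 1102 CPM.

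Amino acid and urea genes gave 6 rises and 4 falls among 34, with a median of -0.01. The rises were 2 without WT replicate 2 and 3 without WT replicate 3 or LKO replicate 2. Agxt, which detoxifies glyoxylate, was at 224, 205 and 262 CPM in WT and 621, 607 and 651 CPM in LKO livers, 2.72-fold higher (adjusted p = 4.12e-05). Cbs, the entry of transsulfuration, was at 355, 323 and 305 CPM against 699, 632 and 742 CPM, 2.11-fold higher (adjusted p = 0.00018). Ahcy, which hydrolyses S-adenosylhomocysteine just before that step, fell by 0.90 (adjusted p = 0.000761), and Asl of the urea cycle by 0.95 (adjusted p = 0.00176). The other urea cycle enzymes Ass1, Otc and Cps1 had adjusted p of 0.653, 0.646 and 0.183.

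Sex-biased liver genes are set by the pattern of growth hormone release, and all mice here were male. Of 32 female-biased genes 15 were tested, of which 5 rose and 4 fell, and of 28 male-biased genes, all tested, 5 rose and 5 fell, with medians of -0.20 and -0.26. In the male-biased list the rises were 2 without LKO replicate 1 and 3 without any other library but WT replicate 2, the falls 8 without LKO replicate 2, and the spread from 12 libraries gave 1 rise and 2 falls. The female-biased genes that rose were Sult1e1, Lpl and Ntrk2 (above), Atp6v0d2, from 5.94, 4.64 and 5.79 CPM to 11.8, 17.1 and 14.0 CPM, and Cyp2c40, from 3.50, 11.3 and 9.99 CPM to 16.2, 45.3 and 21.5 CPM (adjusted p = 0.0316, and up to 0.0867 without WT replicate 1 or 3 or LKO replicate 2). The female-biased marker Cyp2b9 remained under the filter, at means of 1.24 CPM in WT and 0.0672 CPM in LKO livers, and 4 genes of the list (Cyp3a41b, Sult2a2, Sult2a5 and Sult3a2) had no count in any of the 6 libraries. Among male-biased genes Serpina1e was at 7801, 8619 and 7792 CPM against 4766, 4879 and 3234 CPM, and Hsd3b5 at 168, 252 and 187 CPM against 346, 434 and 303 CPM, so that members went both ways. In the growth hormone list Prlr, the prolactin receptor, was the call among 13 genes, from 124, 151 and 112 CPM to 263, 315 and 281 CPM (adjusted p = 0.000383), while Ghr, Igf1 and Stat5b had adjusted p of 0.636, 0.464 and 0.781. This call is 7.69% of the list, under the 13.5% over all tested genes.

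Ribosomal protein genes were the longest list with calls in 1 direction. Of 82 genes listed 78 were tested, of which 28 rose and none fell, with a median of 0.40. Their summed level was 4541 to 5625 CPM in WT and 6292 to 6854 CPM in LKO livers. The rises were 12 to 17 with any 1 library but WT replicate 3 left out, and 33 without that one. Rps2 was at 114, 111 and 131 CPM against 204, 219.9 and 216 CPM (adjusted p = 0.000425) and Rps26 at 80.8, 74.6 and 93.7 CPM against 132, 145 and 139.5 CPM, with all LKO values above all WT values. Rpl27 and Rpl10a rose by 1.49 and 1.28 on the log2 scale, Rpl27 from 2.02, 1.63 and 2.50 CPM to 5.76, 6.16 and 5.42 CPM. Ribosomal protein genes have many near-identical copies in the genome, and reads that match several places were not counted, so these levels are uncertain.

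Smaller groups gave a few calls each. Calls made up 30.3% of the heat shock and endoplasmic reticulum list and 21.1% of the cell cycle list. They made up 45.2% of the secreted hormone and lipoprotein list, beside 13.5% over all tested genes. Among 33 heat shock and endoplasmic reticulum genes 3 rose and 7 fell, led by the small heat shock protein Hspb1, at 3.98, 4.03 and 3.92 CPM in WT and 1.35, 0.982 and 1.31 CPM in LKO livers (adjusted p = 0.000769), and by Sdf2l1, which rose by 0.95. The falls were 4 without WT replicate 1 and 3 without WT replicate 2 or LKO replicate 1, and with the spread from 36 GF libraries no gene was called higher and 2 lower. Of 41 acute phase and interferon genes 3 rose and 4 fell (2 without WT replicate 1 or LKO replicate 1, 7 without LKO replicate 2). These are 17.1% of the list, near the 13.5% over all tested genes. Orm3 was at 8.31, 6.44 and 8.12 CPM against 1.30, 1.80 and 0.871 CPM, and Itih3 and Apcs were higher by 0.75 and 0.97 on the log2 scale. Of 19 cell cycle genes 3 rose, all of them Mcm genes, which encode parts of the replicative helicase (Mcm6, Mcm4 and Mcm3, from WT means of 2.87, 2.91 and 2.45 CPM to LKO means of 5.63, 5.72 and 4.6 CPM), and Wee1 fell. Mcm4 lost its call without WT replicate 1 or 3 or LKO replicate 2 and Mcm3 without WT replicate 1 or 3 or LKO replicate 1 or 3 (adjusted p up to 0.0974 and 0.112), and the division markers Mki67 and Top2a had adjusted p of 0.298 and 0.183. Among 31 genes of secreted hormones and lipoproteins 7 rose and 7 fell, including hepatic lipase Lipc, from 198, 180.3 and 198 CPM to 342, 384 and 329 CPM (adjusted p = 0.000375), and Apoa4, from 12.7, 9.45 and 9.82 CPM to 21.2, 20.7 and 24.7 CPM. The rises dropped to 3 when any of WT replicate 1, WT replicate 2 and LKO replicate 1 was left out and were 4 without LKO replicate 3, while the falls were 4 without the third library of either genotype. None of 10 tested immediate early genes passed, although Egr1 was at 66.4 CPM in the first WT library and at or under 6.01 CPM in the other 5.

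Albumin, the gene whose promoter drives Cre, fell in LKO livers. Alb (chromosome 5, 90460897 to 90476602) took 9.1%, 8.76% and 9.18% of all counts in WT libraries and 2.99%, 2.96% and 3.81% in LKO libraries, and its level was 3.24-fold lower (-1.69 ± 0.13 SE on the log2 scale, adjusted p = 5.25e-05). Over all 18 GF libraries of each genotype the share was 7.85% to 11.34% in WT and 2.58% to 4.22% in LKO, without overlap. Among the 7 hepatocyte markers tested the further call was Hnf4a (-0.41, adjusted p = 0.0226, and up to 0.104 with 1 library left out), and Apoa1, Ttr, Serpina1a, Serpina1c and Cps1 had adjusted p from 0.183 to 0.847. In whole tissue, fewer cells of a type and less RNA per cell cannot be told apart.

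Markers of other cells gave few calls in number, from short lists. The shares called were 10% (Kupffer), 22.2% (endothelial), 10% (stellate), 20% (biliary) and 40% (red cell), beside 13.5% over all tested genes. Neutrophil and lymphocyte lists gave no call, and the pancreatic and fat cell lists had 2 tested members each. Of 10 Kupffer cell markers Csf1r was lower (adjusted p = 0.0492), with summed levels of 294 to 357 CPM in WT and 257 to 295 CPM in LKO livers, and of 9 endothelial markers Cdh5 and Fcgr2b were lower (adjusted p = 0.0466 and 0.0496), with sums of 265 to 292 CPM and 217 to 267 CPM. Each of these calls ended with at least 5 of the 6 libraries left out in turn, with adjusted p up to 0.157. Stellate cell markers summed to 240.2 to 317 CPM and 297 to 332 CPM, with Lrat higher (26.3, 17.5 and 22.8 CPM against 47.5, 46.8 and 35.9 CPM). Of biliary markers Spp1 rose from 28.3, 40.2 and 30.3 CPM to 76.4, 64 and 77.4 CPM, and the list summed to 34.9 to 46 CPM and 72.8 to 94.2 CPM, yet the defining keratins Krt7 and Krt19 stayed at or under 2.91 CPM in all 6 libraries. Red cell genes were lower in 2 of 5 (Alas2 and Hba-a2), with sums of 242 to 289 CPM and 137 to 207 CPM, and the Hba-a2 call ended in DESeq2 and without any 1 library but LKO replicate 1 (adjusted p up to 0.118). Neutrophil, lymphocyte and fat cell lists were near 0 in their defining members (Ly6g and Lep had no count). Cidec of the fat cell list fell by 1.51 on the log2 scale (adjusted p = 0.00806), a call kept whichever library was left out. Of 8 pancreatic genes 6 had no count in any library while the elastases Cela1 and Cela2a rose, the former from 35.2, 37 and 40.9 CPM to 101, 114 and 88.5 CPM. The Cela2a call ended without WT replicate 1 or 2 or LKO replicate 2 or 3 (adjusted p up to 0.0848). The part of these differences in the other results was not tested.

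The genotype effect of ZT18 was set beside that of other GF times and of SPF mice, with no library shared between the effects. Of 1677 genes called at GF ZT18 and tested at ZT14, 1012 were also called at ZT14. This is 60.3% of these ZT18 calls and 49.5% of the 2044 ZT14 calls that were tested at ZT18. Of the 1012, 1011 had the same direction. Again among genes tested at both times, 461 were called at ZT22 too, 27.3% of the ZT18 calls and 85.8% of the 537 of ZT22. At ZT6 503 were, 29.9% and 55.1%. A count of shared calls depends on how many each time gives, so the differences were also tested directly.

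Between ZT14 and ZT18 the genotype effect differed in 25 of 13095 genes (0.191%), the ZT18 effect minus the ZT14 effect being positive in 9 and negative in 16. The targeted gene Arntl was among them. Its effect of -1.46 at ZT18 was more negative than that at ZT14, a difference of -1.19 ± 0.20 on the log2 scale (SE, adjusted p = 0.036). Whether that call holds with 1 library left out is not given here. Nr1d2 fell by 1.35 at ZT18 and by 2.66 at ZT14 on the log2 scale, a difference of 1.32 ± 0.20 (SE, n = 3 per group, adjusted p = 0.0239). Dbp had an effect of 0.44 at ZT18 and -1.65 at ZT14, a difference of 2.09 ± 0.36 (adjusted p = 0.036), and Per3 effects of -0.97 and -2.45, a difference of 1.48 ± 0.27 (adjusted p = 0.0438). Elovl3 had effects of 0.55 and 2.59, a difference of -2.03 ± 0.20 (adjusted p = 0.00104), and stayed called whichever library was left out. In Dbp and Elovl3 the WT level moved more than the LKO level: mean Dbp in WT was 9.64 CPM at ZT14 and 2.38 CPM at ZT18 against 3.07 and 3.24 CPM in LKO, and mean Elovl3 326 and 1387 CPM in WT against 1967 and 2037 CPM in LKO, on levels scaled over all 72 libraries. Calls of single genes were fragile: that of Nr1d2 ended without 7 of the 12 libraries in turn, that of Dbp without 8 and that of Per3 without 10, with adjusted p up to 0.0913, 0.122 and 0.148.

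Between ZT22 and ZT18 the effect differed in 6 of 13143 genes (0.0457%). Npas2 was raised by 4.72 at ZT18 and by 1.52 at ZT22, a difference of 3.19 ± 0.41 (adjusted p = 0.0159), with WT means of 0.816 and 11.7 CPM and LKO means of 21.5 and 33.7 CPM. Tef had effects of -0.22 and 0.99, a difference of -1.23 ± 0.16 (adjusted p = 0.0159), and Gys2 of -1.65 and -0.69, a difference of -0.97 ± 0.14 (adjusted p = 0.0316). The Gys2 call ended without any 1 of 10 of the 12 libraries (all but GF WT ZT18 replicate 1 and GF WT ZT22 replicate 1), with adjusted p up to 0.123. The Tef call ended without GF WT ZT18 replicate 1 or 3, any GF LKO ZT18 library or GF LKO ZT22 replicate 2 or 3 (adjusted p up to 0.0738), and that of Npas2 without GF LKO ZT18 replicate 1 or 3 or GF LKO ZT22 replicate 2 (up to 0.0645). Over the GF day Gys2 in WT livers had means of 129, 398, 621, 529, 262 and 141 CPM from ZT2 to ZT22, against 83.2 to 111 CPM in LKO livers, so that ZT18 fell on the declining limb of its rhythm. The other 3 were Gm36041, the melatonin receptor gene Mtnr1a and Serpinb1a.

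**Figure D5:**
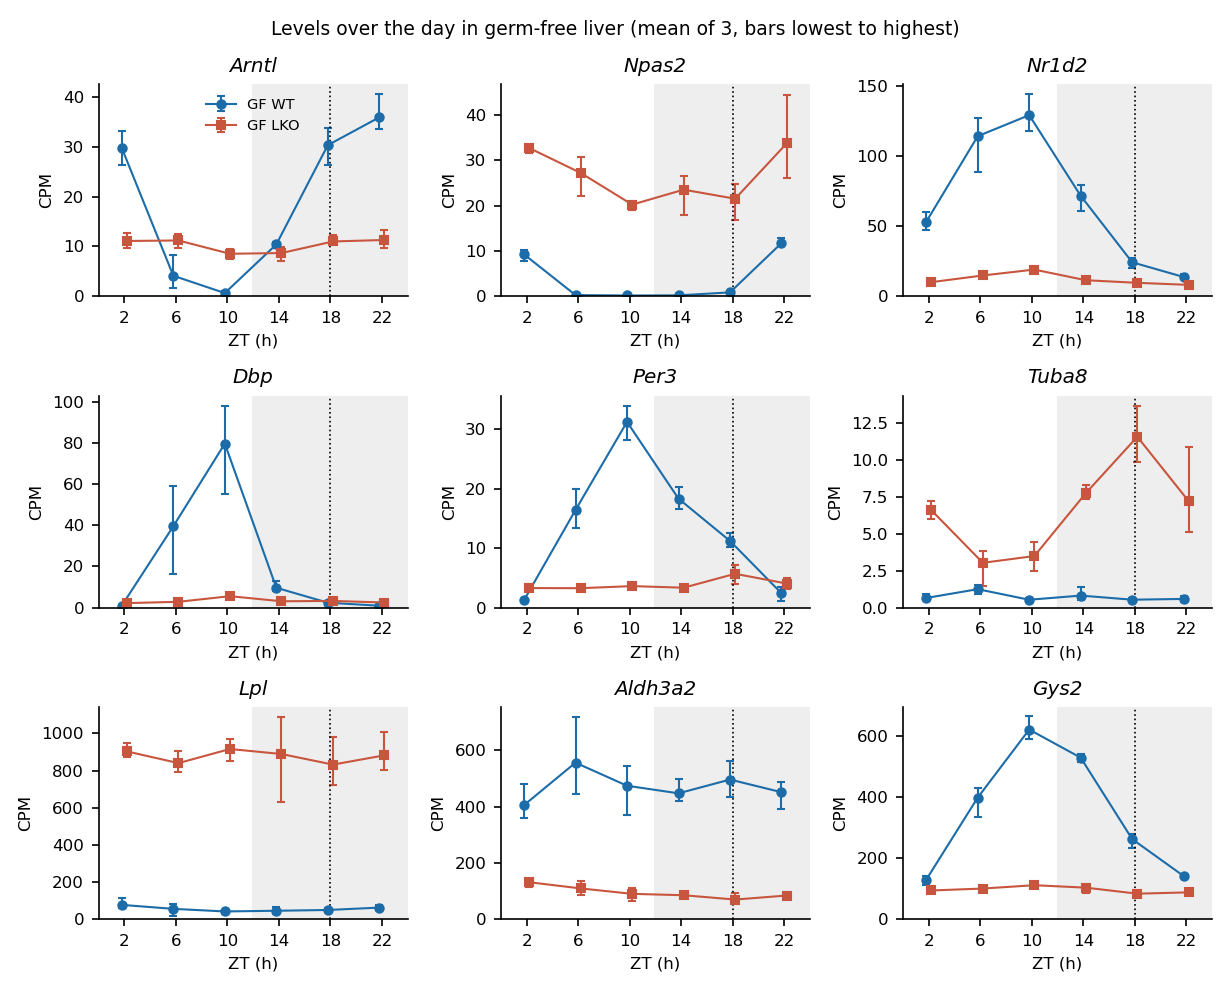
Lines join the mean level (CPM, scaled over all 72 libraries) of 3 GF WT and 3 GF LKO livers at each of 6 times (ZT on the x axis, in hours, dark phase shaded), with bars from the lowest to the highest library and a dotted line at ZT18. Mean Dbp in WT spans 0.903 to 79.8 CPM and is near the LKO level at ZT18, Arntl in WT is above the LKO level at ZT18 and under it at ZT6, and Lpl is higher in LKO at all 6 times.

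At the opposite hour, ZT6, the effect differed in 55 of 13203 genes (0.417%), or in 171 without GF WT ZT6 replicate 3. Arntl was lower in LKO at ZT18 and had an effect of 1.45 at ZT6, a difference of -2.91 ± 0.53 (adjusted p = 0.0353), which became -3.93 ± 0.26 (adjusted p = 4.4e-06) without that library. The call ended without any 1 of the 9 other libraries that are not GF WT ZT6, with adjusted p up to 0.0949. Mean Arntl in WT was 4.09 CPM at ZT6 and 30.4 CPM at ZT18, against 11.2 and 11 CPM in LKO. Dbp had effects of -3.80 at ZT6 and 0.44 at ZT18, a difference of 4.24 ± 0.56 (adjusted p = 0.00631). Tuba8 was raised by 4.40 at ZT18 and by 1.28 at ZT6, a difference of 3.13 ± 0.52 (adjusted p = 0.0238, and up to 0.0798 with the call lost without GF WT ZT6 replicate 1, any GF WT ZT18 library or GF LKO ZT18 replicate 1 or 2), whereas Ppard, a nuclear receptor related to PPARα, was raised less at ZT18 (0.94) than at ZT6 (3.12; adjusted p of the difference 0.00768). Ung, a DNA repair glycosylase, was higher in LKO by 1.43 at ZT18 and lower by 1.33 at ZT6, a difference of 2.76 ± 0.37 (adjusted p = 0.00631). Of the strongest changes at ZT18, Lpl was raised by 3.55 to 4.47 and Aldh3a2 lowered by 1.64 to 2.84 over the 6 GF times, and for these the difference from ZT6, ZT14 or ZT22 did not pass (adjusted p of at least 0.523).

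Against SPF mice at the same hour, no gene's effect differed in edgeR's quasi-likelihood test (0 of 13326, or 0%), with 1152 genes at an unadjusted p under 0.05 and 37 called by DESeq2. The count remained 0 without SPF LKO ZT18 replicate 1, the library that goes against its label, and was 3 without SPF LKO replicate 3. The SPF fit with all its ZT18 libraries called 0 of 13026 genes. In the SPF fit without SPF LKO replicate 1, 415 genes were called, of which 403 were tested in GF mice too. Of these, 349 were also called in GF mice, all in the same direction. Among genes tested in both, this is 20.7% of the GF calls and 86.6% of the SPF calls. Lpl was raised by 4.64, Nr1d2 lowered by 1.71, Aldh3a2 by 2.29 and Gys2 by 1.21 in that fit. The differences from the GF effects were -0.53 ± 0.28, 0.38 ± 0.27, -0.53 ± 0.26 and -0.42 ± 0.22 (SE), none past the threshold (adjusted p of 0.718 to 0.791), which does not show that the effects were alike with and without microbes.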

How the data were processed

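Liver mRNA of 72 mice was sequenced as stranded, single-end libraries. The authors aligned reads with STAR 2.6.1b to GRCm38 (mm10) and deposited raw counts per gene, made with featureCounts 2.0.0 over exons of Ensembl annotation release 97; strand was not used, and reads that matched several places or several genes were left out. Columns were mapped to samples by the number in their labels.

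GF LKO and GF WT libraries of ZT18 were compared with edgeR 4.0.16 (R 4.3.3) by its quasi-likelihood test, with TMM factors, genes kept by filterByExpr and Benjamini-Hochberg adjustment over all tested genes at 0.05. This tool and adjustment gave every adjusted p above. Differences of the genotype effect between times or housing were contrasts of 4 group means over 12 libraries. P-values rest on the spread between mice within groups of 3, pooled over the groups of a fit and moderated by edgeR with the spread of other genes. Counting intervals and floors cover counting error only. The fits were tested on simulated data with the same spread in all genes and changes in well-counted genes only, a simpler case than these data. There edgeR called 65 of 67 genes changed 2-fold and 27 of 67 changed 1.5-fold, so a missing call does not exclude a change of the smaller size. Alternatives were RLE and upper-quartile factors, other filters, DESeq2 1.42.0, a replicate block, wider fits and leaving out each library.

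The comparison, the gene lists and the rule for named genes were chosen with earlier results of these data known. The rule took clock genes, the 12 largest called changes each way with a mean of at least 1 log2 CPM and groups that do not overlap, the genes the study named, up to 4 called genes each way per list by adjusted p, and up to 4 each way per difference of effects by size. Genes named outside it (Por, Cyp4a14, Ehhadh, Cpt2, Acadl, Fgf21, Ppargc1a, Cd36, Scd1, Fasn, Srebf1, Pklr, G6pc, Pygl, Cyp7a1, Nr0b2, Cyp2a5, Cyp3a11, Nr1i3, Nr1i2, Cyp2b10, Gsta3, Ass1, Otc, Cyp2c40, Cyp2b9, Ghr, Igf1, Stat5b, Mki67, Top2a, Egr1, Sult2a2, Sult2a5, Sult3a2, Cyp3a41b, Apoa1, Ttr, Cps1, Serpina1a, Serpina1c and markers without a call) were chosen after their values were seen. Some genes that the rule takes are not reported here. The rule for promoters found no gene, and those printed, stretches of RefSeq windows in GRCm38.p6, were likewise chosen after their values were seen.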

Additional observations from a re-analysis of the deposited data

Results flagged for a closer look

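Each gene here had a genotype effect at GF ZT18 that differed from that at another GF time in a test of the difference itself. Its difference was among the largest called in its direction for that time. Clock genes and outputs with smaller called differences are not listed here, among them Arntl, Nr1d2 and Nampt against ZT14 and Nr1d2 against ZT6. Values are the log2 fold change at ZT18 minus that at the other time, tested with edgeR over 12 libraries, 3 livers per group. Means quoted across times are CPM scaled over all 72 libraries, WT first and LKO second, and so differ slightly from the per-liver values of ZT18.

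Against ZT14 the differences were 1.48 for Per3, 2.09 for Dbp, 4.14 for Scand1 and 1.66 for Ung, and -2.03 for Elovl3, -2.38 for Srgap3, -2.10 for Spon2 and -1.94 for Tubb2a (adjusted p = 0.00104 to 0.0438 in the quasi-likelihood test). Scand1, the gene of a SCAN domain protein, was at 0.416, 0.421 and 0.625 CPM in WT and 4.81, 6.16 and 5.71 CPM in LKO livers at ZT18, while at ZT14 its means were 2.08 and 1.32 CPM. Its WT mean was 4.46 CPM at ZT10. Leaving out 1 library ended the call of this difference for 10 of the 12 libraries in Scand1, Ung and Tubb2a and for 8 in Spon2, with adjusted p up to 0.151, 0.158, 0.12 and 0.116. Srgap3, a GTPase-activating protein, was raised by 1.66 at ZT18 and by 4.04 at ZT14, with WT means of 9.98 and 2.42 CPM and LKO means of 31.5 and 39.9 CPM. Tubb2a, a β-tubulin, was raised by 0.37 at ZT18 and by 2.31 at ZT14, with WT means of 87.2 and 16.2 CPM and LKO means of 113 and 80.9 CPM. Spon2 had WT means of 9.60 and 2.04 CPM and LKO means of 20.4 and 18.7 CPM.

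Against ZT22 the differences were 3.19 for Npas2, 2.50 for Serpinb1a, 1.88 for Gm36041 and 1.70 for Mtnr1a, and -1.23 for Tef and -0.97 for Gys2 (adjusted p = 0.0146 to 0.0494). Serpinb1a, an inhibitor of neutrophil proteases, was at 3.39, 3.43 and 3.46 CPM in WT and 8.82, 9.11 and 11.6 CPM in LKO livers at ZT18, and its means at ZT22 were 16 and 8.13 CPM. Leaving out 1 library ended the Serpinb1a call for 11 of the 12 libraries, with adjusted p up to 0.193, and the Mtnr1a call also for 11 of 12. That of Gys2 ended for 10 and that of Tef for 7. Mtnr1a was at 1.37, 1.57 and 1.87 CPM against 5.66, 5.67 and 7.84 CPM at ZT18, with means of 4.99 and 6.09 CPM at ZT22.

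Against ZT6 the differences were -2.91 for Arntl, 4.24 for Dbp, 3.13 for Tuba8, 2.76 for Ung, 2.37 for Usp2, -3.09 for Pitx3, -2.42 for Asap2 and -2.19 for Ppard (adjusted p = 0.00076 to 0.0353), and leaving out 1 library ended the call for 9 of the 12 libraries in Arntl, 6 in Tuba8 and 3 in Usp2. Pitx3, a homeobox gene, was at 12.4, 9.63 and 5.56 CPM in WT and 22.1, 20.2 and 24.9 CPM in LKO livers at ZT18, and its means at ZT6 were 0.616 and 12.8 CPM. Asap2, an Arf GTPase-activating protein, had means of 9.84 and 19.8 CPM at ZT18 and 3.52 and 37.7 CPM at ZT6. Usp2, a deubiquitinase under clock control, had an effect of -0.88 at ZT18 (adjusted p = 0.0855) and -3.25 at ZT6, with WT means of 20.1 and 30.5 CPM and LKO means of 10.9 and 3.19 CPM.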

How the results depend on the processing

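None of the 1707 called genes changed sign under any setting run. The count at ZT18 was 1698 with RLE factors, 1700 with upper-quartile factors (918 higher and 782 lower, with the median log2 change of all genes at 0.0372 in place of 0.0053), 1697 with at least 10 counts in 3 libraries, 2506 of 24108 with no filter, 1761 with DESeq2, 1492 and 1719 with the spread taken from 11 libraries of ZT18 and from 36 GF libraries. It was 1124 with the spread from all 12 libraries of ZT18, 553 with a log2 change of at least 1 and 754 at an adjusted p under 0.01. Leaving out 1 library gave 1022 to 1429, with 1060 without WT replicate 1, 1055 without WT replicate 2 and 1022 without LKO replicate 1. Of the 144 named genes that were called, 138 or more stayed called under another scaling, filter or DESeq2, 119 to 127 with 1 library left out and 107 with 12 libraries. Replicate numbers do not pair the mice: same-numbered deviations correlated at -0.124, 0.223 and -0.021. With replicate as a block the counts were 1570 at ZT18 (700 higher, 870 lower), and 17, 1, 20 and 0 for the differences against ZT14, ZT22, ZT6 and SPF mice; all 6 genes named against ZT22 lost their call there, as did Arntl and Ung among the genes named against ZT6 and Per3, Dbp, Scand1, Ung, Spon2 and Tubb2a among those named against ZT14. The same 4 differences gave 400, 189, 670 and 270 with no filter and 115, 34, 288 and 37 with DESeq2; the cause was not tested. With 1 library left out they gave 10 to 50, 0 to 8, 16 to 171 and 0 to 3, the ZT6 difference giving 171 without GF WT ZT6 replicate 3 and the ZT22 difference 0 without GF LKO ZT18 replicate 1 or GF LKO ZT22 replicate 2. Over 1.5 times was the move without any 1 library but GF LKO ZT6 replicate 2 for the ZT6 difference, without any GF ZT18 library or GF LKO ZT22 replicate 2 or 3 for ZT22, and without GF WT ZT14 replicate 1 or 3, GF LKO ZT14 replicate 1 or 3, GF WT ZT18 replicate 1 or 2 or GF LKO ZT18 replicate 2 for ZT14; the 3 SPF calls came without SPF LKO replicate 3. Reversed signs were seen only in genes without a call, and among those reported here, under the block Per1 gave 0.01 and Pck1 0.02, and with 1 library left out the lowest to highest values were -0.20 to 0.09 for Rora, -0.54 to 0.25 for Per1, -0.05 to 0.54 for Nr1d1, -0.24 to 0.18 for Bhlhe40, -0.63 to 0.24 for Pck1, -0.03 to 0.41 for Pck2 and -0.01 to 0.19 for Lonrf3. Depth limits genes near 1 CPM, such as Nr1d1 and Ciart, where a few counts decide the value.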

Other observations

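Gene families outside the lists were looked at after their values were seen, at GF ZT18, and are given as values. Of 7 tested Gstm genes, a class of glutathione transferases, 5 rose and none fell, with a median log2 fold change of 0.85, and their summed level was 899 to 1141 CPM in WT and 1903 to 2289 CPM in LKO livers. Gstm2 was at 33.6, 38.6 and 34.4 CPM against 202, 239.7 and 167 CPM. All 3 tested Gsta genes fell, with a median of -1.49. Of 8 Ces1 carboxylesterase genes on chromosome 8 the 6 tested all fell, with a median of -2.04, from 1.35-fold for Ces1c to 12.7-fold for Ces1d. Of 5 tested Ugt1a genes 4 fell (median -1.54), and reads from the exons that these genes share could not be assigned to one of them. Of 11 Acot thioesterase genes 5 fell and Acot6 rose, from 1.13, 0.843 and 0.625 CPM to 2.86, 2.73 and 2.28 CPM, while its neighbours Acot1 to Acot4 on chromosome 12 were among those that fell.

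Of 13 protein genes of the mitochondrial genome 7 were tested and 5 fell, with a median of -0.64 and a summed level of 62367 to 74125 CPM in WT and 37182 to 51285 CPM in LKO livers. For example mt-Co1 was at 21813, 23979 and 19612 CPM against 12443, 15704 and 10885 CPM (adjusted p 0.0504 without LKO replicate 1). The part of RNA quality in this difference was not tested. The 2 tested Raet1 genes, ligands of an activating immune receptor, both rose, with a median of 2.98 and summed levels of 1.87 to 5.82 CPM in WT and 21.2 to 34.8 CPM in LKO livers. Of 20 tested Mup genes, pheromone carriers with near-identical copies, 1 rose and 1 fell (Mup20 and Mup9, calls that ended without any library but LKO replicate 2 and without LKO replicate 1 or 3), and their summed level of 15795 to 17645 CPM in WT lay within the 11013 to 18988 CPM of LKO livers.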
